A study of Mus musculus with 6 samples.

Results

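The chemokine system of mouse liver tumors is described here in 3 WT and 3 Top1mt-KO tumors. Its genes were taken by symbol, as every row named Ccl, Cxcl, Ccr or Cxcr with a number, plus Cx3cl1, Xcl1 and Cx3cr1. This gave 55 of the 30236 genes listed, of which 37 are ligand genes (1 of them the pseudogene Ccl19-ps1) and 18 encode receptors. The tumors came from male C57BL/6 mice, and WT mice were littermates of the Top1mt -/- mice, bred from heterozygous parents and lacking the mitochondrial topoisomerase Top1mt throughout the body. Animals of both genotypes received diethylnitrosamine, a liver carcinogen, on day 14 after birth. From the age of 8 weeks they also received repeated carbon tetrachloride, which injures the liver, for 14 weeks, and tumors were collected at 22 weeks. The comparison asked which transcripts differ between tumors with and without Top1mt.

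Chemokines are small secreted proteins that direct the migration of leukocytes along concentration gradients, and their receptors are G protein-coupled receptors on the cells that respond. CXC ligands carrying the ELR motif act through CXCR2 on neutrophils, interferon-induced CXC ligands act through CXCR3 on T and NK cells, and the monocyte chemoattractant proteins act through CCR2. In the injured liver hepatocytes, bile duct cells, endothelium, stellate cells and macrophages all produce them, and a single receptor often binds several ligands.

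The values are log2 expression values as deposited, and genotypes were compared with limma (log2 fold change, KO minus WT, with its SE). The median over all genes tested ran from 5.65 to 5.83 between libraries and was not equalized in the main comparison. The values behave like a regularized log, a transform that draws weakly expressed genes together, so fold changes of such genes may be understated. The depth of each library is unknown. Top1mt was at 7.71, 5.99 and 8.01 in WT and at 5.58, 6.41 and 6.32 in KO (replicates 1, 2 and 3 of each label), a log2 fold change of -1.13 ± 0.52 (SE, adjusted p = 0.999 by limma). The library labelled WT replicate 2 therefore lay below 2 of the KO libraries, against its label, and every direction below rests on the labels. Top1mt was also not absent from any KO library. The median over all genes tested was 5.67, 5.71 and 5.74 in KO replicates 1, 2 and 3, so these values do not show loss of the transcript. KO replicate 1 also stood apart, since 1 gene, Gm42418, held 17.7% of its summed linear values and at most 0.387% in any other library. Hepatocyte markers, expected in this tissue, were high in all libraries, the lowest value being 12.99 for Serpina1c.

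No chemokine or receptor gene differed between genotypes at an adjusted p under 0.05 in limma with Benjamini-Hochberg adjustment, and the smallest adjusted p among them was 0.999. The count was 0 of 51 genes tested, beside 0 of 22677 genes in all (0%). Ccl1, Ccl19-ps1, Cxcl15 and Ccr8 were among the 25% of genes with the lowest means and were not tested. At an unadjusted p under 0.05 there were 4 members, beside 4.34% of all genes, namely Ccl22 higher in KO (1 gene, beside 1.79% of all) and Cxcl5, Ccl17 and Ccr2 lower (3 genes, beside 2.56%). The same number, 4, came from limma without a mean-variance trend (4.62% of all genes), quantile normalization (4.26%) and median centring (4.31%). In these fits Ccl27a took the place of Ccl17. With no filter on low values there were again 4 (beside 3.32% of all genes), but Ccl27a took the place of Ccl22. With each of the 6 libraries left out in turn, the unadjusted p stayed under 0.05 in 4 of the 6 fits for Cxcl5, in 2 each for Ccr2 and Ccl22 and in 1 for Ccl17. WT and KO values did not overlap for 4 members either, beside 8.28% of all genes, with Ccl22 and Ccl27a higher (beside 3.95%) and Cxcl5 and Ccr2 lower in KO (beside 4.33%). In a bulk tumor, fewer cells of a type and less RNA per cell cannot be told apart.

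Of the 51 genes, 16 had a higher and 35 a lower mean in KO, beside 10817 higher and 11860 lower of all 22677 genes tested. The median log2 fold change over the 51 genes was -0.17, with -0.15 for 34 ligands and -0.21 for 17 receptors. That of all genes tested was -0.02. Chemokine genes also varied more between tumors of one genotype. Their median residual SD was 0.58, against 0.38 for all genes, and among genes with a mean between 0 and 8 it was 0.59 for 42 chemokine genes and 0.52 for 13526 genes. The median absolute log2 fold change in that range was 0.43 for the chemokine genes and 0.29 for all. With the sign kept, the median there was -0.19 for the chemokine genes and -0.04 for all.

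**Figure D1:**
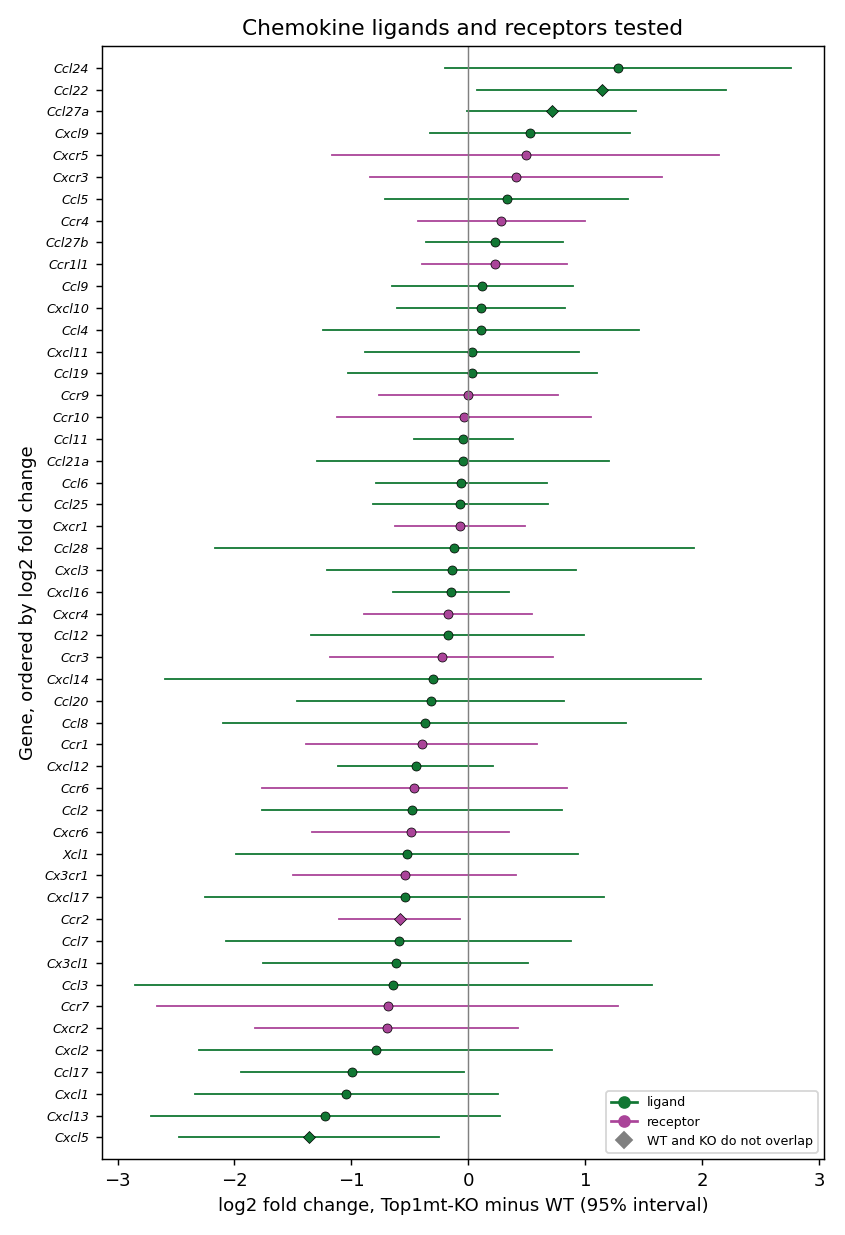
Log2 fold change (KO minus WT, horizontal axis) of 50 of the 51 tested chemokine and receptor genes, with the 95% confidence interval of limma, not adjusted for the number of genes. Points left of 0 are lower in KO. Cxcl5, Ccl17 and Ccr2 are the genes whose interval lies below 0 and Ccl22 the one whose interval lies above it.

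Each ELR CXC ligand tested had a lower mean in KO, and only Cxcl5 separated the genotypes. Cxcl1, Cxcl2 and Cxcl3 lie together on chromosome 5 and encode neutrophil attractants induced through NF-kB. The bases from -110 to -11 before the annotated start of each gene are shown because all carry the same 11-base stretch, printed in capitals, in which matches to the NF-kB consensus on both strands overlap. The sequences are from RefSeq on GRCm38.p6, all on the plus strand, at chr5:90891135-90891234 for Cxcl1, chr5:90903789-90903888 for Cxcl2 and chr5:90785991-90786090 for Cxcl3.
Cxcl1: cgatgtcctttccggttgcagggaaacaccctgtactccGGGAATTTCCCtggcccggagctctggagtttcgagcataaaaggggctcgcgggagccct
Cxcl2: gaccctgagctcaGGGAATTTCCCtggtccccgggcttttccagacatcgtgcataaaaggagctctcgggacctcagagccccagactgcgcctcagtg
Cxcl3: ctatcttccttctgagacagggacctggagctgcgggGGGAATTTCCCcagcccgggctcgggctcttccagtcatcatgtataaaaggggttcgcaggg

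The NF-kB consensus was found, on either strand of the 250 bases before a start, for 10 of the 40 members with a promoter sequence, 7 of them ligands. It was present in 7.25% of 32851 promoters in all. That share is per promoter, whereas a member counted if any of its promoters matched. The 40 members had 47 promoters, so the shares are not in the same unit. The match is a description of these letters and not a measured binding site.

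Cxcl5, which also attracts neutrophils, had log2 values of 2.77, 2.73 and 3.03 in WT and 2.03, 0.68 and 1.72 in KO. Each KO tumor lay below each WT tumor, and the WT tumors were close together. The log2 fold change was -1.36 ± 0.48 (SE, adjusted p = 0.999 by limma, exact two-sided permutation p = 0.1, the smallest that 3 against 3 allow). Cxcl1, the most abundant of the group per exon length, had 8.67, 8.40 and 9.13 in WT and 9.15, 6.82 and 7.10 in KO, a log2 fold change of -1.04 ± 0.56. Here KO replicate 1 was the highest of all tumors and the other KO tumors were the lowest, so the groups overlapped. Without KO replicate 1 the log2 fold change was -1.78, with an adjusted p of 0.332 by limma.

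Cxcl2 had 1.75, 2.75 and 3.38 in WT and 2.41, 0.69 and 2.39 in KO. KO replicate 2 was the lowest tumor for Cxcl2, as it was for Cxcl1 and Cxcl5, and the log2 fold change was -0.79 ± 0.65. Cxcr2, the receptor for these ligands on neutrophils, had 3.75, 3.64 and 4.52 in WT and 3.14, 2.83 and 3.85 in KO, a log2 fold change of -0.70 ± 0.49. Its groups overlapped only through KO replicate 3.

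With Cxcl3 and Cxcr1 included, 6 of the 6 ELR ligand and receptor genes tested had a lower mean in KO, and their median log2 fold change was -0.75. A lower KO mean was also found for 11860 of all 22677 genes tested. Cxcr1 added little, since its values were low and all lay between 0.05 and 0.32 (log2 fold change -0.07). Cxcl3 was weak, and its highest value, 0.44, was in KO replicate 1 (log2 fold change -0.14). Of 5 neutrophil markers 4 were lower in KO, with a median log2 fold change of -1.07, and Csf3r was the exception (0.15). S100a8 (log2 fold change -1.39) and S100a9 (-1.08) had an unadjusted p under 0.05, beside 4.34% of all genes. The groups overlapped for both. The log2 of the summed linear values of the list ran from 8.37 to 9.87 in WT and from 7.95 to 8.53 in KO. The lowest single value in that list was 0.50, for Ly6g. Among 5 bile duct markers, 2 had an unadjusted p under 0.05, beside 4.34% of all genes. These were Krt19 (log2 fold change -2.68) and Krt7 (-2.20), both lower in KO. Groups did not overlap for Krt19 and Epcam (-1.19), beside 8.28% of all genes, while Spp1 (0.05) and Sox9 (0.15) had higher KO means. The median log2 fold change of that list was -1.19, its lowest single value being 2.5 for Krt19. Its summed level ran from 11.6 to 12.6 in WT and from 11.7 to 12.6 in KO. Spp1 dominated that sum, at 12.56 against a summed level of 12.62 in WT replicate 1, so the sum says little of the other markers. The part of either cell type in the ELR values was not tested.

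**Figure D2:**
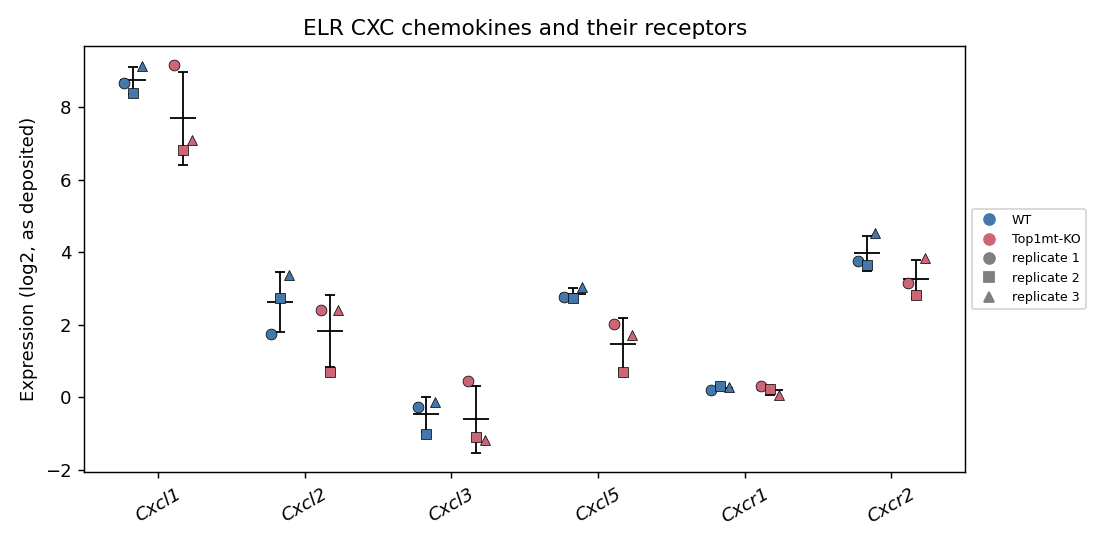
Log2 expression value (vertical axis) of the ELR CXC ligands and their receptors in each WT and KO tumor, with 1 point per tumor and the group mean ± SD. Cxcl5 separates the genotypes, while KO replicate 1 carries the highest Cxcl1 value (9.15).

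The interferon-induced ligands had higher means in KO, with overlapping groups for each. Cxcl9, Cxcl10 and Cxcl11 bind CXCR3, which guides activated T and NK cells. The region from -220 to -91 before the start of Cxcl10 (RefSeq, GRCm38.p6, chr5:92348980-92349109, minus strand) is shown because it carries both an interferon-type element, GAAAGTGAAA, and stretches that match the NF-kB consensus, GGGAAATTCC and GGGGACTTCCC, all in capitals.
Cxcl10: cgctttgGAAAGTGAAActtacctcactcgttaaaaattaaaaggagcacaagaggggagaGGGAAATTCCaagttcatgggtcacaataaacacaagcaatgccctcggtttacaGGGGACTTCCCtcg

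The interferon-type element was searched as TTTC, any 2 bases and again TTTC, on both strands. It was found for Cxcl10, Cxcl14 and Ccl19, 3 of the 40 members, and in 2.98% of all promoters. Members were again counted by gene and the share of all by promoter. Cxcl9 had 6.79, 7.69 and 7.82 in WT and 8.59, 7.38 and 7.92 in KO. The groups overlapped, with KO replicate 1 the highest, and the log2 fold change was 0.53 ± 0.37. Cxcl10 was level between the genotypes, with 5.59, 5.06 and 5.62 in WT and 5.81, 5.43 and 5.36 in KO (log2 fold change 0.11 ± 0.31).

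Cxcl11 had 5.09, 5.97 and 5.78 in WT and 6.24, 5.10 and 5.60 in KO (log2 fold change 0.03 ± 0.40). The 95% confidence interval of the difference, -0.88 to 0.95, leaves room for a change of nearly 1 log2 unit either way. Cxcr3 had 2.09, 2.48 and 3.40 in WT and 2.43, 3.52 and 3.24 in KO (log2 fold change 0.41 ± 0.54), again with overlapping groups. All 4 genes of the set thus had a higher mean in KO, with a median of 0.26, and 0 of them had an unadjusted p under 0.05. Leaving out WT replicate 2 turned Cxcl10 to -0.07, and leaving out KO replicate 1 turned Cxcl11 to -0.27. Ifng, the cytokine that induces these ligands, had low values that differed little between tumors, from -0.19 to 0.03. Whether it was expressed in any given tumor cannot be read from them. Cxcl10 and Cxcl11 overlap Art3 and a pseudogene on the opposite strand, and the source used here does not say whether counting used strand.

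Ccr2, the receptor that brings inflammatory monocytes into the liver, was lower in every KO tumor. It had 7.38, 7.31 and 7.27 in WT and 6.34, 6.98 and 6.88 in KO. The WT tumors differed by little, and KO replicate 1 was the lowest. The log2 fold change was -0.59 ± 0.22 (SE, adjusted p = 0.999 by limma, exact two-sided permutation p = 0.1), and -0.39 without KO replicate 1.

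Ccl2, its main ligand, had 5.43, 4.77 and 5.92 in WT and 3.82, 5.79 and 5.07 in KO, a log2 fold change of -0.48 ± 0.56. The groups overlapped, and the lower KO mean came from KO replicate 1, without which the log2 fold change was 0.05. Ccl7 had 2.27, 0.35 and 2.10 in WT and 1.54, 1.35 and 0.03 in KO (log2 fold change -0.60 ± 0.64). Ccl12 stood well above the rest only in WT replicate 1 and KO replicate 1, with 1.49, 0.11 and 0.08 in WT and 1.18, 0.04 and -0.07 in KO (log2 fold change -0.18 ± 0.50). With Ccl8, 5 of 5 genes of the CCR2 set had a lower mean in KO, with a median of -0.48. Among 8 macrophage markers the KO mean was higher for 4 and lower for 4, and their summed level ran from 12.7 to 13.6 in WT and from 12.6 to 13.2 in KO.

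Ccl3, Ccl4 and Ccl5, which recruit macrophages and T cells, went either way. Ccl3 had 4.72, 3.25 and 1.20 in WT and 1.26, 2.42 and 3.56 in KO (log2 fold change -0.64 ± 0.96), so every KO value lay within the range of the WT tumors. Ccl4 had 2.5, 1.12 and 2.75 in WT and 2.83, 2.31 and 1.56 in KO (log2 fold change 0.11 ± 0.58). Ccl5, made largely by T and NK cells, had 3.82, 4.53 and 4.81 in WT and 4.83, 4.14 and 5.17 in KO (log2 fold change 0.33 ± 0.45). None of these ligands separated the genotypes.

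Ccr1, a receptor on monocytes and neutrophils, had 4.43, 4.48 and 4.31 in WT and 3.36, 4.28 and 4.38 in KO (log2 fold change -0.40 ± 0.43). KO replicate 1 alone was low.

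Ccl17 and Ccl22 both bind CCR4, found on regulatory and type 2 helper T cells, and both lie on chromosome 8, yet their differences had opposite signs. Ccl22, made by dendritic cells and macrophages, had 0.51, 0.74 and 1.85 in WT and 1.92, 2.32 and 2.28 in KO. All KO tumors lay above all WT tumors, KO replicate 1 only just. The log2 fold change was 1.14 ± 0.46 (SE, adjusted p = 0.999 by limma, exact two-sided permutation p = 0.1). Ccl17 had 0.92, 1.18 and -0.39 in WT and -0.37, -0.42 and -0.48 in KO, a log2 fold change of -0.99 ± 0.41. Its signal stood above the level of the KO tumors in WT replicates 1 and 2 only, and WT replicate 3 lay within the KO range (exact two-sided permutation p = 0.2). Both genes are weakly expressed. Among 5 dendritic cell markers the KO mean was higher for 2 and lower for 3, and their summed level ran from 7.70 to 8.00 in WT and from 7.30 to 7.76 in KO.

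Ccl24 and Ccl27a had higher means in KO. Ccl24, an eosinophil attractant made by macrophages, had 2.58, 4.80 and 2.86 in WT and 4.74, 4.28 and 5.07 in KO, a log2 fold change of 1.28 ± 0.64. The library labelled WT replicate 2 stood among the KO tumors, and without it the log2 fold change was 1.98. Ccl27a, an epithelial ligand of CCR10, had 5.87, 4.99 and 5.38 in WT and 6.22, 6.22 and 5.93 in KO. The groups did not overlap, but KO replicate 3 exceeded WT replicate 1 by little (log2 fold change 0.71 ± 0.31, adjusted p = 0.999 by limma). Ccl27a has a near-identical copy, Gm20878, aligned over 766 bases at 98.6% identity, so its reads may be shared. Ccl27b, another tested member, aligned with Ccl27a over 425 bases at 99.3% identity, so reads may also be shared between these members.

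Cxcl13, the ligand that organises B cell follicles, had 4.91, 5.79 and 6.09 in WT and 5.58, 3.09 and 4.43 in KO. KO replicate 2 was far below the rest while KO replicate 1 lay within the WT range, and the log2 fold change was -1.23 ± 0.65. Its receptor Cxcr5 had 2.63, 2.42 and 2.28 in WT and 1.30, 3.49 and 4.0 in KO (log2 fold change 0.49 ± 0.72). The WT tumors were alike, whereas KO tumors lay both below and above them. Cxcr5 shares 110 exon bases with Bcl9l on the opposite strand. The summed level of 4 B cell markers was 6.16 in KO replicate 1 and 7.76 in KO replicate 3, the lowest and highest of all tumors, and 6.57 to 6.84 in WT. Whether B cells account for the Cxcr5 values was not tested.

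Ccr7, which brings naive T cells and mature dendritic cells toward lymphoid tissue, had 2.96, 4.83 and 4.07 in WT and 1.53, 3.58 and 4.67 in KO (log2 fold change -0.69 ± 0.85). It was lowest in KO replicate 1, and the log2 fold change turned to 0.17 without that tumor. Ccl19, a CCR7 ligand, was above its low level only in WT replicate 3 and KO replicate 3, with -0.17, -0.08 and 1.0 in WT and -0.09, -0.15 and 1.10 in KO (log2 fold change 0.03 ± 0.46). Ccl21a, the other ligand, had 1.58, 1.30 and 0.09 in WT and 0.12, 1.09 and 1.63 in KO (log2 fold change -0.04 ± 0.54, 0.01 with libraries centred on their median). Neither ligand separated the genotypes, and both have near-identical copies elsewhere in the genome.

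For Cxcl12 and Cxcr4, Cx3cl1 and Cx3cr1, and Cxcl16 and Cxcr6, ligand and receptor both had lower means in KO. Cxcl12, which retains CXCR4-bearing leukocytes and is made by liver stroma and endothelium, had 11.81, 11.07 and 11.57 in WT and 10.45, 11.33 and 11.31 in KO (log2 fold change -0.45 ± 0.29). Cxcr4 had 6.67, 6.66 and 6.15 in WT and 5.95, 6.88 and 6.14 in KO (log2 fold change -0.17 ± 0.31, 0.01 without KO replicate 1). For both genes KO replicate 1 was the lowest tumor and the others overlapped.

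Cx3cl1, a membrane-bound ligand of endothelium and epithelium, had 6.10, 5.14 and 5.59 in WT and 4.21, 5.90 and 4.86 in KO (log2 fold change -0.62 ± 0.49). Cx3cr1, its receptor on monocytes and macrophages, had 6.85, 5.56 and 6.14 in WT and 5.21, 6.20 and 5.51 in KO (log2 fold change -0.55 ± 0.41). The same tumors, WT replicate 1 and KO replicate 1, were the extremes for ligand and receptor. Cx3cr1 overlaps the antisense gene Gm33858.

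Cxcl16, another membrane-bound ligand, varied little, with 7.77, 7.65 and 7.91 in WT and 7.22, 7.91 and 7.76 in KO (log2 fold change -0.15 ± 0.22, 0.05 without KO replicate 1). Its receptor Cxcr6, which marks T and NKT cells resident in the liver, had 5.71, 5.81 and 6.21 in WT and 5.91, 4.77 and 5.57 in KO (log2 fold change -0.49 ± 0.36). KO replicate 2 was its lowest tumor. Cxcl16 shares 552 exon bases with Zmynd15 on the opposite strand.

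Ccl20, the CCR6 ligand made by inflamed epithelium, was weak, with 0.76, -0.89 and -0.93 in WT and -0.90, -0.04 and -1.08 in KO (log2 fold change -0.32 ± 0.49). Ccr6 had 3.06, 2.12 and 2.01 in WT and 0.96, 2.44 and 2.40 in KO (log2 fold change -0.46 ± 0.57, 0.02 without KO replicate 1). Neither gene separated the genotypes.

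The 18 other tested members had log2 fold changes between -0.55 for Cxcl17 and 0.28 for Ccr4, with overlapping groups in each. Cxcl14, named after its values were seen, had the widest range of any member, with 5.96, 4.72 and 6.19 in WT and 3.45, 4.79 and 7.72 in KO. Its highest and lowest values were both in KO tumors, and the log2 fold change was -0.31 ± 0.99.

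**Figure D3:**
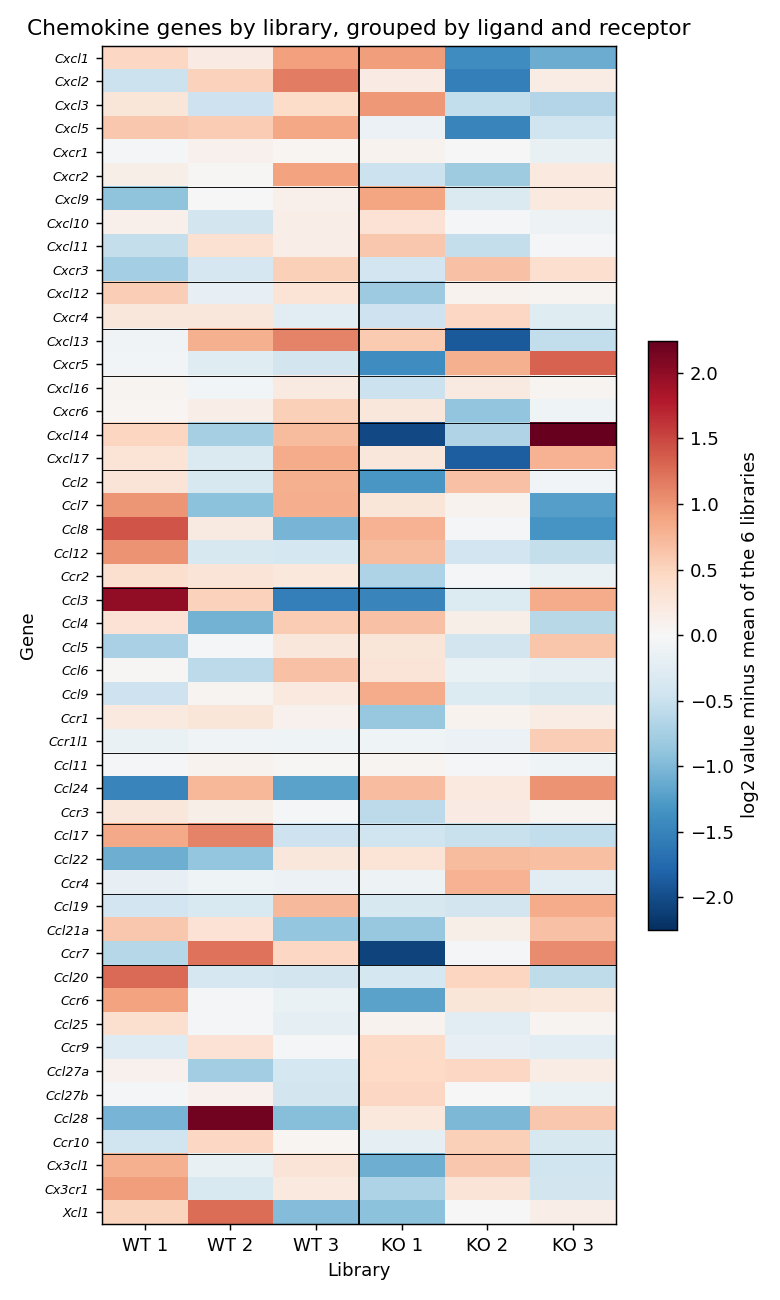
Log2 value of 50 of the 51 tested genes in each tumor, minus the gene's mean over all 6 tumors (color scale), with genes ordered by ligand and receptor set. In the ELR set the low values lie mainly in KO replicates 2 and 3, while many receptors are low in KO replicate 1.

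Receptors were low in 1 library. In KO replicate 1 the median centred value was -0.47 over the 17 receptors and 0.26 over the 34 ligands, whereas in the other 5 libraries the receptor median lay between 0.04 and 0.10 and the ligand median between -0.20 and 0.28. KO replicate 1 was the lowest tumor for 8 of 17 receptors, beside 17.1% of all genes tested. Without it the median log2 fold change of the receptors was 0.01, compared with -0.21 in all tumors. The summed level of 3 leukocyte markers was also lowest in KO replicate 1, at 9.96 against 10.03 to 10.62 in the other tumors. Of these markers only Coro1a was lowest in KO replicate 1, while Ptprc and Laptm5 were lowest in the library labelled WT replicate 2, whose receptor median was 0.10. The part of leukocytes in the receptor values was not tested.

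**Figure D4:**
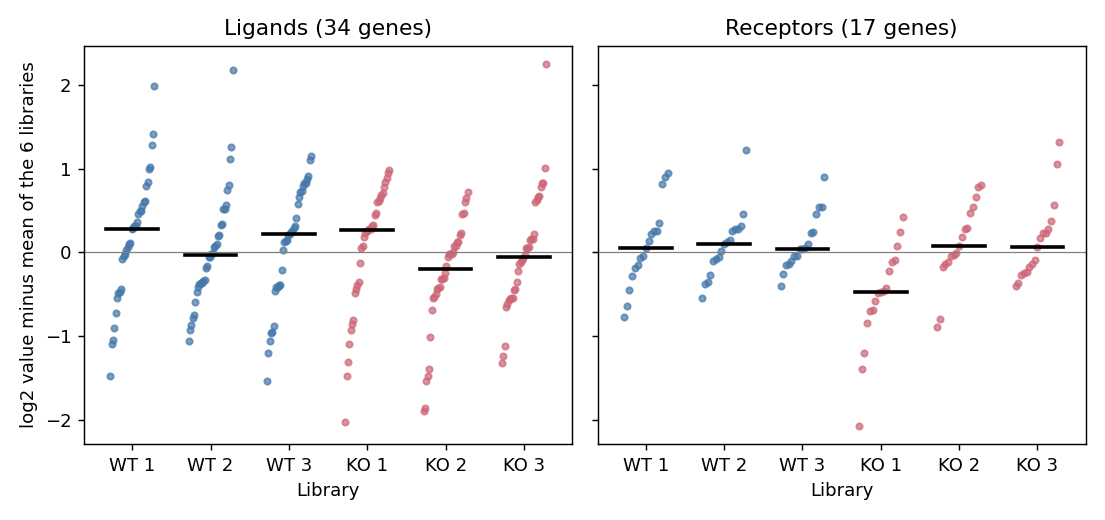
Centred log2 values (vertical axis) of 34 ligands and 17 receptors in each of the 6 tumors. The receptor median of KO replicate 1 is -0.47, and that of each other tumor lies between 0.04 and 0.10.

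Levels of different genes were compared after the log2 of the exon length in kilobases (GENCODE M21 on GRCm38) was subtracted from the mean log2 value. On this scale Ccl9, a CCR1 ligand, led the ligands with a level of 8.89, followed by Cxcl12 with 8.22, Cxcl1 with 7.31 and Ccl6 with 6.87. Cxcr4 led the receptors with a level of 5.55, followed by Cxcr6 with 4.71 and Ccr2 with 4.27. The cells that made these transcripts were not measured, and differences between neighbours in this order were not tested. By position, 12 ligands lie on chromosome 11 and 10 on chromosome 5, while 11 of the 18 receptors lie on chromosome 9.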

How the data were processed

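RNA of 3 WT and 3 Top1mt-KO liver tumors was sequenced by the study from stranded libraries, and samples were grouped by the genotype in their titles. The table the authors deposited lists genes by symbol, with log2 expression in each tumor. The submitters' processing notes name bcl2fastq 2.17, Trimmomatic 0.36, STAR 2.5.1, Subread, DESeq2 and GRCm38, whereas the methods of the study name BWA and an older mouse assembly. The log2 transform is not given in the sources used here. The values behave like a regularized log, so no counts or depth were available and no count model was run. Unnamed columns with leftover cells were not used.

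KO and WT tumors were compared by limma 3.58.1 under R 4.3.3 (lmFit, eBayes with trend, Benjamini-Hochberg adjustment over all genes tested, threshold 0.05). Genes whose mean over the 6 libraries lay in the lowest 25% were removed (mean under -0.89), leaving 22677. Single genes were also compared by exact two-sided permutation over 20 regroupings. The labels do not say that the tumors came from separate mice, so p-values measure the spread between these tumors. The fit was tested on simulated data. List levels are log2 of summed linear values.

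Members and lists were chosen with earlier results of these data known. Values in every library are given for Top1mt, for any member past the threshold, for the 10 members with the largest absolute fold change, the 5 with the smallest p and the main ligand and receptor pairs. Promoters were taken from RefSeq tables on GRCm38.p6, which matched 40 of the 55 members. Counts and medians cover all members, and 1 member is not reported here singly. Copies were sought with blastn 2.17.0 (at least 250 bases at 95% identity). The alternatives were no trend, quantile normalization, median centring, other filters on low values, the replicate number as a block, and libraries left out.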

Additional observations from a re-analysis of the deposited data

How the results depend on the processing

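In all 13 alternatives 0 chemokine genes had an adjusted p under 0.05 by limma. Over all genes the count was 4 with no filter on low values, 0 to 1 with 1 library left out (1 without KO replicate 1) and 0 otherwise. With a filter at the median, which kept 28 members, those at an unadjusted p under 0.05 numbered 2 (3.9% of all genes) and those whose groups did not overlap 2 (8.49%). Leaving out 1 library gave 2 to 5 (3.79% to 5.98% of all genes) and 6 to 11 (15.9% to 21.5%), and leaving out WT replicate 2 and KO replicate 1 together gave 5 (5.95%) and 17 (33.7%). Median log2 fold changes with 1 library left out ran from -0.25 to -0.12 for all members, from -0.37 (without WT replicate 2) to -0.021 for ligands and from -0.32 to 0.01 for receptors. With both libraries left out the median of members was -0.10. Under the filter at the median it was -0.07 for ligands and -0.40 for receptors, and quantile normalization gave -0.07 for ligands. Median centring gave -0.12 for all members, -0.09 for ligands and -0.15 for receptors. The median of all genes tested was then 0.04.

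Of 33 members followed, 14 changed sign in at least 1 alternative. With 1 library left out, log2 fold changes ran from -0.58 to 0.29 for Ccl12, -0.37 to 0.41 for Ccl19, -0.93 to 0.053 for Ccl2, -0.64 to 0.23 for Ccl20, -0.49 to 0.37 for Ccl21a, -1.57 to 0.19 for Ccl3, -0.39 to 0.44 for Ccl4, -0.72 to 0.025 for Ccr6, -1.39 to 0.17 for Ccr7, -0.073 to 0.21 for Cxcl10, -0.27 to 0.31 for Cxcl11, -0.29 to 0.055 for Cxcl16, -0.45 to 0.014 for Cxcr4 and -0.048 to 1.30 for Cxcr5. With WT replicate 2 and KO replicate 1 both left out they were 0.53 for Ccl21a, 0.032 for Ccl3, -0.69 for Ccl4, 0.61 for Ccr7, -0.21 for Cxcl10, -0.085 for Cxcl11 and 0.10 for Cxcr4. Ccl21a was 0.00063 after quantile normalization and 0.011 after median centring. The cause of these changes was not tested, and the depth that limits weak genes is unknown.

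With the replicate number as a block, 0 genes had an adjusted p under 0.05 by limma. An unadjusted p under 0.05 was then found for 3 members, beside 4.02% of all genes. These were Ccl17, Ccl22 and Cxcl5, and Ccr2 was no longer among them. Deviations from the group means correlated at -0.12, -0.08 and 0.05 between libraries sharing a number, so the numbers were not taken as pairs.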

Other observations

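Genes that surround the chemokine system were listed by hand and counted in the same comparison. Among the 14 chemokines, atypical receptors and related genes without a numbered symbol, 11 were in the table and all of them were tested. Of these, 3 had a higher and 8 a lower mean in KO, and 0 had an unadjusted p under 0.05 by limma. Ackr1, the atypical receptor that presents chemokines on venules, had log2 values of 3.11, 4.38 and 4.0 in WT and 2.44, 3.52 and 2.48 in KO, and is named after its values were seen. The groups overlapped, and the log2 fold change was -1.01 ± 0.54 (SE).

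Signalling genes downstream of the receptors were represented by 23 of 24 listed genes, 10 with a higher and 13 with a lower KO mean. The 2 with an unadjusted p under 0.05, beside 4.34% of all genes tested, are named after their values were seen. Pik3cg, the lipid kinase that G protein-coupled receptors activate in leukocytes, had 6.75, 6.20 and 6.90 in WT and 5.65, 6.00 and 6.09 in KO (log2 fold change -0.70 ± 0.28, adjusted p = 0.999 by limma). Tiam1, an exchange factor for the GTPase Rac, had 6.86, 6.56 and 6.24 in WT and 5.13, 6.09 and 5.84 in KO (log2 fold change -0.87 ± 0.33). Neither gene had overlapping groups, which held for 8.28% of all genes tested, and KO replicate 1 was the lowest tumor for both.

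Of 18 tested inducers of chemokine transcription, 9 were higher and 9 lower in KO and 0 had an unadjusted p under 0.05. Tnf, Nfkbia and Irf8, named after their values were seen, had WT and KO values that did not overlap, beside 8.28% of all genes tested. Tnf, the cytokine that activates NF-kB, had 3.16, 3.63 and 4.08 in WT and 2.53, 2.83 and 2.86 in KO (log2 fold change -0.89 ± 0.45). Nfkbia, an NF-kB inhibitor that is itself induced by NF-kB, had 9.48, 9.19 and 9.14 in WT and 8.89, 9.10 and 8.71 in KO (log2 fold change -0.37 ± 0.16). Irf8, a myeloid transcription factor, had 8.35, 8.21 and 8.23 in WT and 8.05, 8.09 and 8.01 in KO (log2 fold change -0.21 ± 0.14).

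Of the remaining cell type markers, T cell markers were higher in KO for 4 of 6 genes (median log2 fold change 0.08) and NK cell markers for 1 of 3 (-0.11). Endothelial markers were higher for 5 of 6 (0.10), stellate cell markers for 1 of 6 (-0.40) and hepatocyte markers for 3 of 6 (-0.03). An unadjusted p under 0.05 by limma was found for 1 endothelial marker, Cdh5 (0.40), and 1 stellate cell marker, Lrat (-0.79). That held for 4.34% of all genes tested. Of all 22677 genes tested, 10817 were higher in KO. The T cell markers disagreed, since Cd3e was lower (-1.03) and Cd3g higher (0.90) in KO, both without overlap. Groups also did not overlap for 2 endothelial markers and 1 hepatocyte marker, all higher in KO, beside 8.28% of all genes tested.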
